A study of Mus musculus with 4 samples.

Results

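PHF2-bound sites in mouse skeletal muscle were compared between a muscle that keeps Phf2 and a muscle in which it is deleted in the fibres. The sites are the peaks of the 2 PHF2 lists of the series, 1621 from control muscle (Ctrl) and 161 from knockout muscle (KO), together 1782 of the 2011 peaks in all 4 lists. The assay was CUT&RUN, in which an antibody held on chromatin directs a nuclease to cut out the DNA around its target. The other lists came from IgG, a non-specific antibody, with 77 peaks in Ctrl and 152 in KO.

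The Ctrl group carried Phf2 flox/flox;Acta1 Cre- and the KO group Phf2 flox/flox;Acta1 Cre+, so the floxed allele was shared and the Cre transgene was not. Both were gastrocnemius muscle, in the calf, of 4-week-old male C57BL/6 mice. The Acta1 promoter drives Cre in muscle fibres, so satellite cells, vessel cells, fibroblasts and immune cells in the same tissue keep Phf2. In whole muscle, fewer bound cells and less binding per cell cannot be told apart. Each group held 1 library. Every difference below therefore describes a pair of libraries, with no test across animals, and the 95% intervals reflect counting error alone.

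PHF2 has a PHD finger, which reads histone H3 methylated at lysine 4, a mark of active promoters, and a jumonji domain of the kind that removes methyl groups from histones and other proteins. It is known as a transcriptional coactivator that is brought to promoters and to DNA-bound factors. In muscle, promoters of many housekeeping, signalling and developmental genes carry the mark that its PHD finger reads.

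The classes were chosen by the measured positions of the called peaks in both lists, so the counts of each class are a description. A Ctrl peak was called retained where a KO peak covered at least 1 bp of it, near where the closest KO peak lay within 1 kb, and lost where no KO peak did. KO peaks were sorted in the same way against the Ctrl list, and those with no Ctrl peak within 1 kb are called KO-only. The names describe the peak lists: a lost site is one with no called KO peak, and signal under the calling threshold was not analysed here. By this rule 114 of 1621 Ctrl peaks were retained (7.03%, Wilson interval 5.89 to 8.38), 34 were near (2.10%, 1.5 to 2.92) and 1473 were lost (90.9%, 89.4 to 92.2). Of the 161 KO peaks, 122 overlapped a Ctrl peak (75.8%, 68.6 to 81.7), 13 were near one (8.07%, 4.78 to 13.3) and 26 were KO-only (16.1%, 11.3 to 22.6). The KO list was therefore mostly a small subset of Ctrl sites. No peak of either PHF2 list overlapped an IgG peak of its genotype, and by 3 counts the share could be at most 0.185% in Ctrl and 1.86% in KO.

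The promoter sequences below show the kinds of start site behind these classes. Each window runs from 250 bases before to 50 bases after the listed start of the gene, from RefSeq (GRCm38.p6, the assembly behind mm10), 5′ to 3′ on the gene's strand, with every CpG in capitals. Plpp3, Foxo1, Wasf2 and Cul1 had retained peaks, Jun and Arid1b had the lost peaks with the highest fold enrichment and the most tags, and Clock had a KO-only peak that covered its whole window. The windows are Plpp3 (chr4:105157097-105157396, plus strand), Foxo1 (chr3:52268087-52268386, plus strand), Wasf2 (chr4:133130383-133130682, plus strand), Cul1 (chr6:47454507-47454806, plus strand), Jun (chr4:95052173-95052472, minus strand), Arid1b (chr17:4994824-4995123, plus strand) and Clock (chr5:76304743-76305042, minus strand).
Plpp3: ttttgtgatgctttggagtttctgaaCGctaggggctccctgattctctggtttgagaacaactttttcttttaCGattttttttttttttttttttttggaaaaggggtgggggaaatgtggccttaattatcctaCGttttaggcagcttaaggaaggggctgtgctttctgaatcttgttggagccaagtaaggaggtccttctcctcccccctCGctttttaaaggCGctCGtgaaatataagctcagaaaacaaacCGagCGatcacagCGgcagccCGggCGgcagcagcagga
Foxo1: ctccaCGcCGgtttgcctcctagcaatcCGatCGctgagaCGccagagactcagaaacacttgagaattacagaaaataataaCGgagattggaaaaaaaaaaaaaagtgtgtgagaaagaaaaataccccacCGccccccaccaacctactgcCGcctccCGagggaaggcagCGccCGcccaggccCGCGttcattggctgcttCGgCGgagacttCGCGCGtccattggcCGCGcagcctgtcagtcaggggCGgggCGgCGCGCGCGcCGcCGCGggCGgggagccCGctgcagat
Wasf2: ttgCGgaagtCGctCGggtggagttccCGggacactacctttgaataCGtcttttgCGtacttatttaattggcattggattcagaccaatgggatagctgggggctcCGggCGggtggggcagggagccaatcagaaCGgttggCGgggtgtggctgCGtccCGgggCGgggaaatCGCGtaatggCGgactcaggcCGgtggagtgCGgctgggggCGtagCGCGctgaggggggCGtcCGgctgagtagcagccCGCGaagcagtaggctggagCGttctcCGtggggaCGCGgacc
Cul1: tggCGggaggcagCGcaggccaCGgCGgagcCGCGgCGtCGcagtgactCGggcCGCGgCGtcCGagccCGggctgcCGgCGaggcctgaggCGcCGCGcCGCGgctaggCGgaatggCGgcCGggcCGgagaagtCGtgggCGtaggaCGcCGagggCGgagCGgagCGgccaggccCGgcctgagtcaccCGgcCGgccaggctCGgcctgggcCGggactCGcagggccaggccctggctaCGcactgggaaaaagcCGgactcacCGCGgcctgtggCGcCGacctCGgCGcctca
Jun: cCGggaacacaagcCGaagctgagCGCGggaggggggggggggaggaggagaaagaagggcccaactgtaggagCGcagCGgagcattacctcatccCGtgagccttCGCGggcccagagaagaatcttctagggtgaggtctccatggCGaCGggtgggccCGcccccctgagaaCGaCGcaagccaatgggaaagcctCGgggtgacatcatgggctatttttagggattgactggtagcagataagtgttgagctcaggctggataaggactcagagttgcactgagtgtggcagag
Arid1b: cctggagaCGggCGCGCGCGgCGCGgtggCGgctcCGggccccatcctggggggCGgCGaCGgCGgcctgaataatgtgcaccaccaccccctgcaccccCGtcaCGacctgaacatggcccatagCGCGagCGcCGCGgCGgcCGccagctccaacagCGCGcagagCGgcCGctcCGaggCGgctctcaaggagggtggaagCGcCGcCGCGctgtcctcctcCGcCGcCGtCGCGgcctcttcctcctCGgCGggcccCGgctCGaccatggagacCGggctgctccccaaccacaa
Clock: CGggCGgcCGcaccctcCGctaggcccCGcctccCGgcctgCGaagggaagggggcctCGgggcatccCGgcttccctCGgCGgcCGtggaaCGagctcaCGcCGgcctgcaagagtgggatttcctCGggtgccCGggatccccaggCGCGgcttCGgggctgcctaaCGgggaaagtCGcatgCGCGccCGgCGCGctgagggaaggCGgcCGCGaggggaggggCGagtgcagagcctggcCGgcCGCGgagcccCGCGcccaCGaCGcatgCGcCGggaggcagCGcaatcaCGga

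These windows held 11 CpG in Plpp3, 31 in Foxo1, 29 in Wasf2, 46 in Cul1, 15 in Jun, 42 in Arid1b and 42 in Clock. The KO peak covered all 300 bases of the Wasf2 and Cul1 windows, as did the Ctrl peak. At Foxo1 the Ctrl peak covered all 300 bases and the KO peak none. At Plpp3 the Ctrl peak covered 73 bases and the KO peak 2. Foxo1 and Plpp3 thus show sites that count as retained although the KO peak lay mostly or wholly downstream of the window. At Jun the Ctrl peak covered 149 bases and at Arid1b all 300, with no KO peak. All 7 windows held the GC box letters GGGCGG on 1 or both strands.

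The height of a peak is given as tags, the whole number of fragments over its summit, recovered from the authors' fold enrichment and p. Whole tags, within 0.005 of a tag, came out for each of the 309 distinct combinations of fold and p in Ctrl and the 84 in KO. The sizes of the PHF2 libraries recovered in the same way differed by a factor of 1.01 (KO over Ctrl), so tags are compared without scaling. Retained Ctrl peaks had a median of 21 tags at the summit (quartiles 18 and 26.8), near peaks 18, and lost peaks 15 (13 and 18). The tallest retained, near and lost peaks reached 44, 31 and 40 tags, so the classes overlapped over most of their range. Retained peaks were also wider, with a median of 1112 bp (quartiles 760 and 1810), against 595 bp for near and 490 bp (355 and 714) for lost peaks. In the KO list the median width was 512.5 bp for peaks over a Ctrl peak, 451 bp for near peaks and 360.5 bp for KO-only peaks.

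The share of Ctrl peaks that were retained was larger in each higher bin of summit tags. It was 1.43% (5 of 349) at 8 to 12 tags, 2.01% (10 of 498) at 13 to 15 and 6.07% (26 of 428) at 16 to 19. It was 14.6% (35 of 239, interval 10.7 to 19.7) at 20 to 24 tags, 28% (23 of 82, 19.5 to 38.6) at 25 to 29 and 60% (15 of 25, 40.7 to 76.6) at 30 to 44. Of the 25 tallest, 9 were lost, among them Arid1b, Jun, Tcf7l2, Casz1 and Jarid2. By width the share went from 1.87% (10 of 534) at 292 to 399 bp to 54.5% (24 of 44, 40.1 to 68.3) at 2000 bp or more. A wider peak has more room to be overlapped, so width and retention are tied by the rule itself. Among peaks under 700 bp, 2.01% (21 of 1046, 1.32 to 3.05) were retained with fewer than 20 tags and 5.38% (5 of 93, 2.32 to 12.0) with 20 or more. Among peaks of 700 bp or wider, these shares were 8.73% (20 of 229, 5.72 to 13.1) and 26.9% (68 of 253, 21.8 to 32.7). Height thus went with retention among the wider peaks, and among the narrower ones the intervals overlapped. Width, which the rule ties to retention, went with it at either level of tags.

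**Figure D1:**
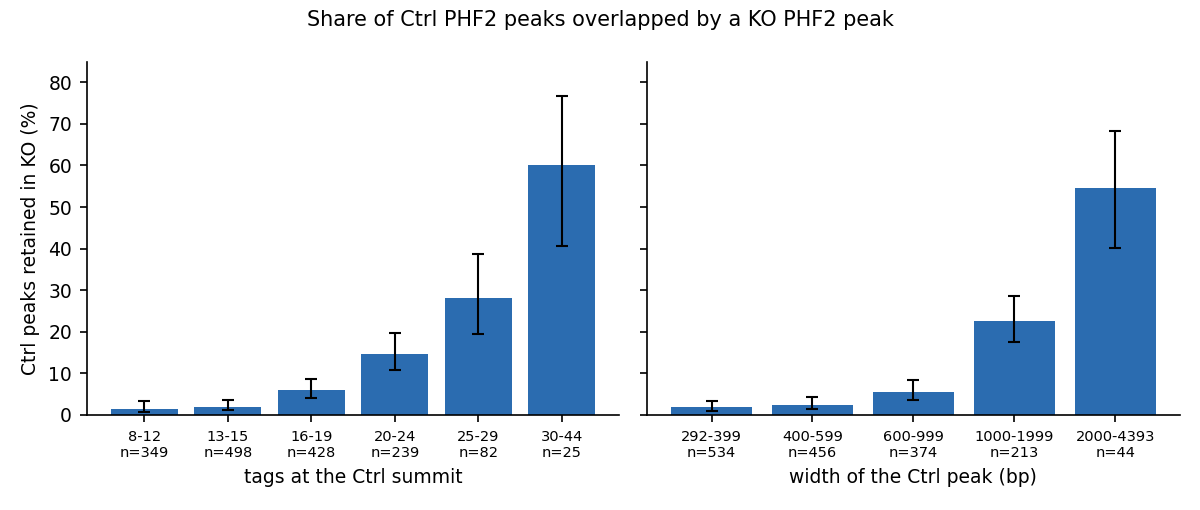
Share of Ctrl PHF2 peaks overlapped by a KO PHF2 peak (vertical axis, percent) by tags at the Ctrl summit (left) and by width of the Ctrl peak in bp (right). Bars are shares, error bars Wilson 95% intervals and n the number of Ctrl peaks. The share goes from 1.43% at 8 to 12 tags to 60% at 30 to 44 tags.

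The KO list had its own floor: its lowest peak had 10 tags. That was the lowest count at the genome-wide background, and peaks over a higher local background needed more tags. The KO peak at Dusp1, for example, had 20 tags and a −log10 q of 2.18, against a lowest of 1.77 in the list. Its lowest −log10 p was 6.19, against 4.73 in the Ctrl list, so the KO list ended at a stricter p. Of the Ctrl peaks of 8 to 12 tags, 5 were retained and 338 lost. At the median tag ratio of retained sites, 0.722, the KO floor would equal 13.8 Ctrl tags. Of the lost peaks, 492 (33.4%) lay below that and 981 at or above it. The ratio comes from retained sites alone, and the floor of 10 tags holds only at the lowest background. How many lost sites fell below the KO calling threshold was therefore not tested. Of the lost peaks, 262 had 20 or more tags and 64 had 25 or more.

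At the 114 retained sites, each Ctrl peak was paired with the KO peak that covered most of it. KO peaks were lower and narrower than their Ctrl partners. The KO summit had fewer tags at 96 sites, equal tags at 5 and more at 13. The ratio of KO to Ctrl tags had a median of 0.722 (interval of the median 0.690 to 0.773) and ran from 0.316 to 1.89. Summed over all retained sites there were 2555 Ctrl and 1818 KO tags. Counting error per site was wide: the Poisson intervals of Ctrl and KO tags overlapped at 112 sites and were apart at 2, Hivep2 and Klf9. Overlap of such intervals does not show that the counts were alike, and no site was tested for a difference. Hivep2 held several KO peaks, and with the tallest of them as partner only Klf9 was apart. KO peaks were narrower at 95 sites and wider at 19, with a median ratio of widths of 0.450. The KO peak covered a median of 35.9% of the Ctrl peak and lay wholly inside it at 60 sites. Only peaks that passed calling in KO enter these ratios, so they are no estimate for the Ctrl list as a whole. The authors' fold enrichment, taken over the local background, was lower in KO at 69 of these sites and higher at 45, and at 30 sites it was higher although KO tags were fewer. That background was lower in KO at 92 sites, with medians of 0.394 in KO and 1.0 in Ctrl, so tags and fold enrichment ordered these sites differently.

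**Figure D2:**
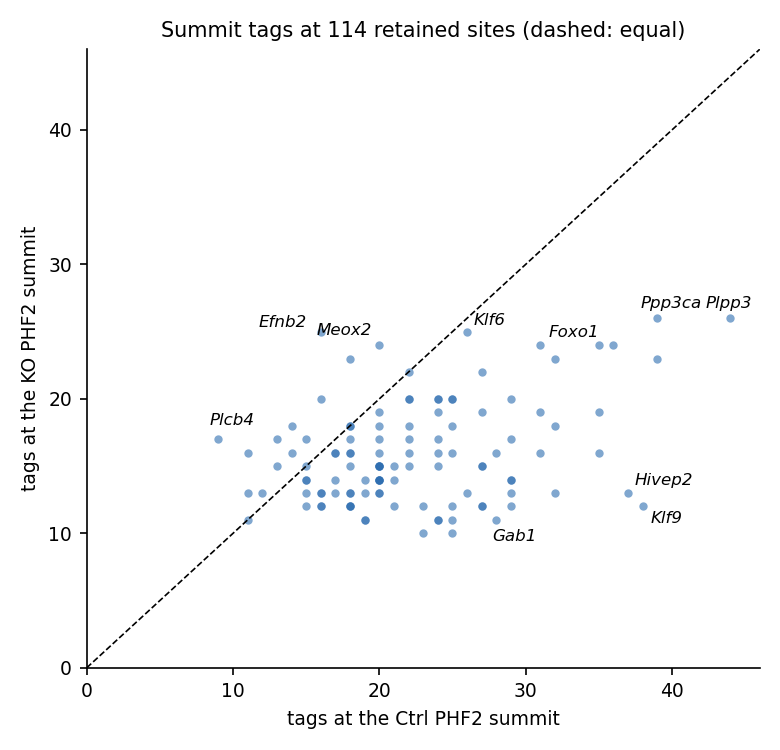
Tags at the KO summit (vertical axis) against tags at the Ctrl summit (horizontal axis) for the 114 retained sites, with 1 point per Ctrl peak, darker where points coincide. The dashed line marks equal tags: 96 points lie below it, 5 on it and 13 above. Klf9 and Hivep2 lie farthest below among the labelled sites.

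The most enriched KO peak lay at Plpp3, which encodes a membrane phosphatase that breaks down lysophosphatidic acid and related lipids. Its Ctrl peak (chromosome 4, 105157324 to 105158726) had 44 tags (interval 32.0 to 59.1) and a fold enrichment of 18.3, the highest of the Ctrl list. Its KO peak (105157395 to 105159683) had 26 tags (17 to 38.1) and a fold enrichment of 12.5, the highest of the KO list. The KO summit lay 739 bp farther downstream, and here the KO peak was the wider, 2289 bp against 1403 bp. The counting intervals of the pair overlapped.

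Among the other KO peaks of highest fold enrichment, Ppp3ca, the catalytic subunit of calcineurin, had 39 Ctrl tags and 26 KO tags, with summits 10 bp apart. Adgrl2, an adhesion G protein-coupled receptor, had 35 and 24 tags at a site inside the gene, which held another KO peak of 22 tags. Efnb2, the ligand ephrin-B2, had 16 Ctrl tags and 25 KO tags, the second-highest ratio at 1.56. The Ctrl level was above KO at Ppp3ca and Adgrl2 and below it at Efnb2, and the counting intervals overlapped in each pair. Rnd3, a small GTPase that loosens actin stress fibres, had 22 and 18 tags. Kat2b, a histone acetyltransferase, had 24 and 19 tags, with summits 34 bp apart.

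Pairs with a higher KO than Ctrl summit were few, and their Ctrl tags, from 9 to 20, lay below the median of 21 at retained sites. Plcb4, a phospholipase C, had 9 Ctrl tags and 17 KO tags, the highest ratio at 1.89. Nptn, a cell adhesion protein, had 11 and 16 tags, and Lasp1, an actin-binding protein, had 14 and 18. Marcks, an actin-linked substrate of protein kinase C, had 18 and 23 tags. Meox2, a homeobox factor of the limb muscle lineage, had 20 and 24. In each of these pairs the counting intervals overlapped.

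At the other end, Klf9, a Krüppel-like factor induced by glucocorticoids, had 38 Ctrl tags (26.9 to 52.2) and 12 KO tags (6.20 to 21.0), a ratio of 0.316. Hivep2, a zinc finger factor, had 37 (26.1 to 51.0) and, in the paired KO peak, 13 (6.92 to 22.2), a ratio of 0.351. Its Ctrl peak held 2 other KO peaks, of 14 and 20 tags, and the last of these (12.2 to 30.9) gave a ratio of 0.541 with overlapping intervals. Klf9 had a single KO peak, apart from Ctrl. Gab1, an adaptor of receptor tyrosine kinases, had 28 and 11 tags. Rock2, a kinase downstream of RhoA, had 32 and 13, Nfia, a nuclear factor I protein, 29 and 12, and Cux1, a homeobox factor, 25 and 10. For these last genes the lower Ctrl bound did not clear the upper KO bound.

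Overlapping peaks often had their summits apart. The median distance between Ctrl and KO summits was 242.5 bp (interval of the median 193 to 338), with quartiles of 118 and 506.5 bp. It was at most 146 bp, a length of about a nucleosome, at 35 sites and at most 292 bp, the narrowest peak of both lists, at 62. It exceeded 1 kb at 5 sites, and at 3 when the nearest KO summit was taken. The KO summit lay inside the Ctrl peak at 96 sites, but the Ctrl summit lay inside the KO peak at only 65. Where a start on a known strand lay close by, 46 of 78 KO summits were downstream of the Ctrl summit and 32 upstream, with a median of 97.5 bp downstream (interval of the median -42 to 221). That interval includes 0.

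The largest shift was at Gab1, where the KO summit lay 1744 bp from the Ctrl summit, downstream. At Foxo1 the Ctrl peak spanned 2866 bp around the start (chromosome 3, 52267579 to 52270444) with 31 tags. The KO peak there was 938 bp wide (52269259 to 52270196) with 24 tags and a summit 1268 bp farther downstream. At Klf6 the paired summit lay 1252 bp downstream with 26 Ctrl and 25 KO tags, but another KO peak in the same Ctrl peak, of 17 tags, had its summit 62 bp from the Ctrl summit. The shift was 980 bp downstream at Arid1a, a subunit of SWI/SNF remodellers. At Hivep2 the paired summit lay 1291 bp upstream, and the tallest KO peak there had its summit 276 bp from the Ctrl summit. At the other extreme, summits were 2 bp apart at Ecpas, a proteasome adaptor, 3 bp at Zeb2, a zinc finger repressor, and 9 bp at Wasf2, an actin regulator. Zeb2 kept its position with a KO peak of 594 bp against 3146 bp in Ctrl.

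**Figure D3:**
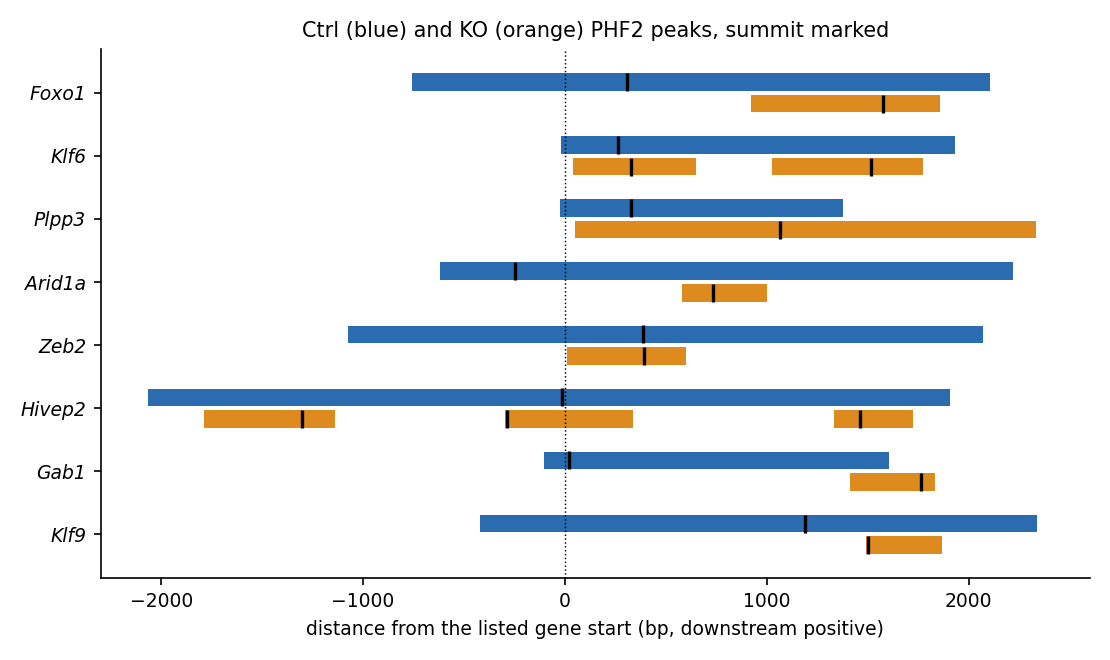
Ctrl (blue) and KO (orange) PHF2 peaks at 8 retained genes, drawn to scale by distance from the listed gene start (horizontal axis, bp, downstream positive), with every KO peak that overlaps the Ctrl peak and a black line at each summit. At Foxo1 and Gab1 the only KO summit lies over 1 kb downstream of the Ctrl summit, Klf6 and Hivep2 have several KO peaks, and at Zeb2 both summits nearly coincide.

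Several wide Ctrl peaks held more than 1 KO peak. This was so at 9 Ctrl peaks, and Hivep2, Sox4 and Ptprg held 3 each, the highest number. In turn, 4 KO peaks lay over more than 1 Ctrl peak. The 114 retained Ctrl peaks were paired with 112 distinct KO peaks.

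The rule's threshold split sites that lay close together. Just inside it, Pdgfb overlapped by 3 bp, Sema4c by 12 bp and Vim by 17 bp. Just outside it, a Myc peak and its KO peak were separated by 1 bp. The gap of near peaks had a median of 356 bp and reached 961 bp at Cux1, and 6 of the 34 were within 100 bp. The closest lost peak was 1128 bp from a KO peak, at Qk. Beyond that the lists separated widely: 16 lost peaks lay within 10 kb of a KO peak and 1428 lay over 100 kb away.

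Most near sites adjoined a retained one. For 22 of the 34 near Ctrl peaks, the adjacent KO peak overlapped another Ctrl peak, and for 12 it overlapped none. The tallest near peak was at Myc (chromosome 15, 61985358 to 61988148), a growth-promoting transcription factor, with 31 tags over 2791 bp, and the KO peak beside it had 14 tags. Spry2, an inhibitor of receptor tyrosine kinase signalling, had 2 near peaks of 19 and 17 tags, on either side of its retained peak. Cited2, a transcriptional cofactor, and Irf2bpl had near peaks of 25 tags each. Klf6, Foxo3, Efnb2 and Ecpas also had a near peak beside a retained one.

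The 12 near sites without any overlapped neighbour lay at or in 11 genes. Epas1, the hypoxia-inducible factor HIF-2α, had 27 Ctrl tags and, 691 bp away, a KO peak of 14. Ets1, a transcription factor, had 20 and 10 tags with a gap of 57 bp. Hes1, a Notch target, had Ctrl peaks of 21 and 14 tags on either side of a KO peak of 15 tags, with gaps of 302 and 21 bp. Igf1r, the receptor for insulin-like growth factor, had 14 and 12 tags with a gap of 885 bp. The remaining sites lay at or in Sema6a, Sema6d, Ppp1r12a, Gse1, Pan3, Btbd3 and Ddx6.

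The tallest and widest lost sites included regulators of chromatin, signalling and metabolism. Arid1b, a subunit of SWI/SNF remodellers, had the most tags, 40 (28.6 to 54.5), over 3331 bp (chromosome 17, 4993942 to 4997272). Jun, a subunit of AP-1, had 37 tags (26.1 to 51.0) and the highest fold enrichment of the class, 16.1 (chromosome 4, 95049856 to 95052321). Tcf7l2, a factor of Wnt signalling that is also a marker of muscle connective tissue cells, had 32. Both Arid1b and Jun were as tall in Ctrl as Klf9 and Hivep2, which were retained.

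Casz1, a zinc finger factor, had 2 lost peaks of 32 and 30 tags. Jarid2, a partner of Polycomb complex PRC2, Slmap, a membrane protein of the sarcoplasmic reticulum, and the region shared by Fzd4 and Tmem135 had 30 tags each. The widest lost peak lay inside Irs1, an adaptor of the insulin receptor, at 3451 bp with 24 tags. Ppargc1b, a coactivator of mitochondrial genes, spanned 2982 bp with 28 tags. Zhx2, a homeobox repressor, and Ptch1, the Hedgehog receptor, spanned 2931 and 2294 bp. All of these are single-library Ctrl values with no KO peak within 1 kb.

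KO-only peaks were small and sat at gene starts. Of the 26, 25 lay within 1 kb of a start, and their gaps to the closest Ctrl peak ran from 9.17 kb to 2211 kb. The highest was at Kitl, which encodes stem cell factor, with 21 tags (13 to 32.1), a fold enrichment of 10.3 and 712 bp (chromosome 10, 100015952 to 100016663). Amotl2 and Lats2, components of the Hippo pathway, had 20 and 15 tags. Thbd, the endothelial anticoagulant receptor thrombomodulin, had 18.

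Asap2, a GTPase-activating protein of Arf, and Usp9x, a deubiquitinase, had 15 tags each at a fold enrichment of 7.55. Rai1, a nuclear protein, had 15, Tshz2, a zinc finger factor, and Crk, an adaptor protein, 14, and Rasgrf2, a Ras activator, 13. Snai2, a repressor of epithelial genes, had 12. Clock (chromosome 5, 76304729 to 76305107), the core circadian activator, had 11 tags with its summit 40 bp upstream of the start. These counts are close to the floor of 10 tags in the KO list.

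Position in genes hardly separated retained from lost sites. A gene start lay within 1 kb of 83.3% of retained Ctrl peaks (95 of 114, 75.4 to 89.1) and of 83.1% of lost ones (1224 of 1473, 81.1 to 84.9). Near peaks were at a start in 64.7% of cases (22 of 34, 47.9 to 78.5) and inside a gene in 32.4%. Read the other way, 7.08% of Ctrl peaks at a start were retained, 7.87% of those inside a gene (17 of 216) and 3.13% of those between genes (2 of 64, 0.861 to 10.7). In the KO list, a start was within 1 kb of 77.0% of peaks over a Ctrl peak and of 96.2% of KO-only peaks (81.1 to 99.3), but of only 4 of 13 near peaks. Exons and introns could not be told apart in the gene table used. Of the 2 retained peaks between protein-coding genes, 1 overlapped Malat1, a nuclear long non-coding RNA, with 27 Ctrl and 19 KO tags, and 1 overlapped Chaserr, another long non-coding RNA, with 24 and 11.

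Summits of retained peaks lay farther into the gene. For peaks close to a start on a known strand, the summit was a median of 364 bp downstream of the start in retained Ctrl peaks (interval of the median 290 to 498, n = 78). It was 240 bp in lost peaks (225 to 261, n = 1083), and these intervals did not overlap. The classes were not matched by width for this comparison. KO peaks over a Ctrl peak had a median of 493 bp (399 to 580, n = 86) and KO-only peaks 412 bp (n = 20). Most summits were downstream in each class, 82.1% in retained, 78.2% in lost and 86.0% in KO peaks over a Ctrl peak.

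Retained Ctrl peaks also reached across the start more often, but they were wider, with a median of 1112 bp against 490 bp in lost peaks. A wider peak spans a start more easily, and the classes were not matched by width. They spanned it at 47 of 78 sites (60.3%, 49.2 to 70.4), against 434 of 1083 lost peaks (40.1%, 37.2 to 43.0). Where retained peaks spanned the start, they reached a median of 371 bp upstream and 1131 bp downstream, against 201 and 341 bp for lost peaks. KO peaks over a Ctrl peak spanned the start at only 15 of 86 sites (17.4%, 10.9 to 26.8). At Foxo1, Klf6 and Gab1, for example, the Ctrl peak spanned the start and each overlapping KO peak lay wholly downstream of it.

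**Figure D4:**
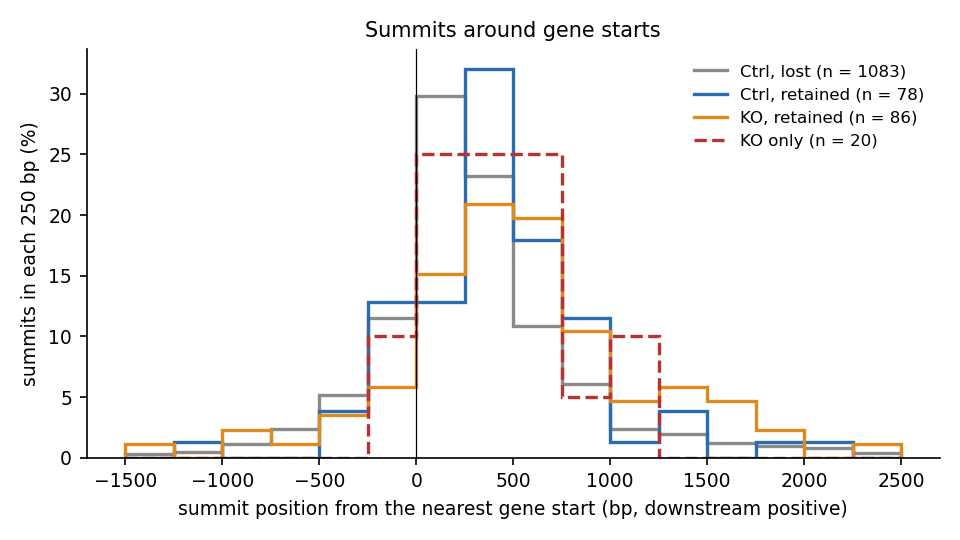
Share of summits (vertical axis, percent of each class) in bins of 250 bp by distance from the nearest listed gene start (horizontal axis, bp, downstream positive). Lines are classes of peaks from 1 library each. Summits gather downstream of the start in every class, with medians of 240 bp in lost Ctrl, 364 bp in retained Ctrl and 493 bp in KO peaks over a Ctrl peak.

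Counted by gene, 1363 of 21887 protein-coding genes had a Ctrl PHF2 peak at a start (6.23%), 123 had a KO peak (0.562%) and 97 had both, which is 7.12% of the 1363. Genes with 1 Ctrl peak at a start had a retained one in 6.64% of cases (83 of 1250), and genes with 2 or more in 13.3% (15 of 113, 8.21 to 20.8). More peaks give a gene more chances of a retained one, so this contrast is tied to the counting. Among genes with 20 or more Ctrl tags, 19.7% (60 of 305, 15.6 to 24.5) had a KO peak too. Gene lists were read against these shares, and the counts are descriptions of chosen lists. Most retained list members named below had 20 or more Ctrl tags.

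Of 22 genes of FoxO signalling and atrophy, 10 had a Ctrl peak and 4 of these a KO peak. Foxo1 and Foxo3, transcription factors that switch on protein breakdown in muscle, had 31 and 24 Ctrl tags and 24 and 15 KO tags. Ddit4, an inhibitor of mTORC1, had 20 and 15, and Cul1, the scaffold of SCF ubiquitin ligases, 20 and 13. The muscle ubiquitin ligases Trim63 (14 tags) and Fbxo32 had lost peaks, as did Fbxo30, Gadd45a, Nedd4 and Cul3.

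Of 16 feedback genes of MAP kinase signalling, 7 had a Ctrl peak and 4 of these a KO peak. Spry1 and Spry2, which dampen receptor tyrosine kinases, had 22 and 27 Ctrl tags and 17 and 15 KO tags. The phosphatases Dusp1 and Dusp6 had 24 and 20 Ctrl tags and 20 and 14 KO tags at the paired KO peak. Spry4 (17 tags), Dusp10 (15) and Spred1 were lost. So both Sprouty genes and both MAP kinase phosphatases that were retained had lower KO than Ctrl tags, with overlapping counting intervals.

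Among 24 genes of TGF-beta and BMP signalling, 10 had a Ctrl peak and 3 a KO peak as well. Acvr2a, a receptor for activin and myostatin, had 23 Ctrl and 12 KO tags, Smad7, an inhibitor of the pathway, 22 in each, and Ski, a repressor of Smads, 14 and 16. The receptors Bmpr2, Tgfbr2, Acvr1, Bmpr1a and Acvr2b and the genes Smad1 and Tgfb2 had lost peaks. Retained sites thus included a receptor and inhibitors of the pathway, and 5 other receptors were lost.

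Of 24 developmental transcription factors, 10 had a Ctrl peak, and in 5 of these it was retained. Sox4 had 36 Ctrl and 24 KO tags, and Nfib 32 and 23 in the widest Ctrl peak of the list, 4393 bp. Zfp608 had 27 and 15, Zeb2 29 and 14, and Meox2 20 and 24. Of these, Nfib had its KO peak farther than 1 kb from the start. Lost genes of the list included Zeb1, Meis1, Sox9 and Ebf1. Among 17 Krüppel-like factors, Klf6 and Klf9 were retained and Klf7, Klf10, Klf13, Klf3 and Klf4 were lost.

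Immediate early genes, the first transcribed after a stimulus, were split. Of 22, 8 had a Ctrl peak. Retained peaks were at Myc, Dusp1 and Ier5 (25 Ctrl and 12 KO tags), and lost ones at Jun, Fosl2, Fos, Btg2 and Ier2. The AP-1 subunit genes of the list with a Ctrl peak at the start, Jun (37 tags), Fosl2 (28) and Fos (14), had no KO peak. Of all genes with a Ctrl peak, 7.12% had a KO peak, and of those with 20 or more Ctrl tags 19.7%. None among so few genes cannot be told from either share.

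In the Notch list of 20, Notch1, a receptor that keeps satellite cells quiescent, was retained with 18 tags in each library, Hes1 was near, and 6 genes were lost. In the insulin and IGF list of 24, Pik3r1, a regulatory subunit of PI3-kinase, was retained with 25 Ctrl and 16 KO tags, Igf1r was near and 5 genes were lost, among them Irs2 and Gsk3b. In the Hippo list of 20, all 6 Ctrl genes were lost, including Tead1, Yap1 and Lats1, and the KO peaks were at the other genes Lats2 and Amotl2. In the clock list of 22, 6 genes including Rora and Nr1d1 were lost and Clock was KO-only. In the Hippo and clock lists, the few KO peaks lay at genes without a Ctrl peak. Of all 1363 genes with a Ctrl peak, 97 (7.12%) had a KO peak, so none among 6 is near that share.

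In the 4 remaining pathway lists, Ctrl peaks were present and no KO peak lay at a start. Ctrl peaks lay at 12 of 29 genes of glycolysis and glycogen, 12 of 20 myogenic regulators, 11 of 34 sarcomere genes and 14 of 35 splicing and hnRNP genes, all lost. Examples are Ldha (28 tags), which makes lactate, and Pgam2 (22), the muscle phosphoglycerate mutase. Among myogenic regulators were Sox6 (25), Tead1 (24), Mef2d (22) and Myf6 (15). Sarcomere and filament genes included Des (21), the intermediate filament desmin, Myot (16) and Myl1 (16). Splicing factors included Rbm24 (23), which directs muscle splicing, Mbnl2 (21) and Hnrnpa2b1 (21).

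Each of these lists is small, and 7.12% of all genes with a Ctrl peak had a KO peak, so few KO peaks would be present at the background share. That share is not matched by height. Among genes with 20 or more Ctrl tags, 0 of 15 in these 4 lists had a KO peak (0 to 20.4). This compares with 60 of 305 of all such genes (19.7%) and 18 of 37 in the other 10 lists (48.6%, 33.4 to 64.1). The lists were composed with earlier results of these data known, and none of these counts is a test.

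**Figure D5:**
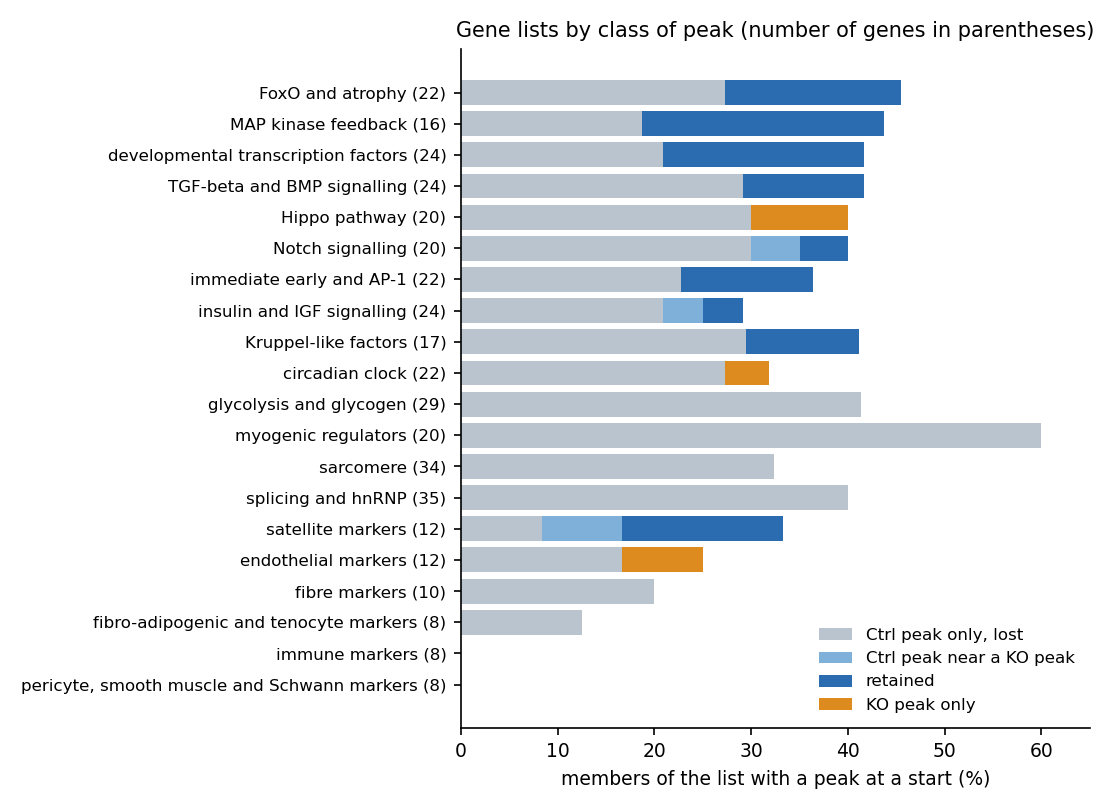
Percent of the members of each gene list (horizontal axis, number of genes in parentheses) with a PHF2 peak within 1 kb of a start, split into lost, near, retained and KO-only. Bars are counts from 1 library per group and have no error bars. Glycolysis, myogenic, sarcomere and splicing lists hold lost peaks only.

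Markers of the cells in the tissue were counted in the same way. Of 12 satellite cell markers, Spry1 and Notch1 were retained, Hes1 was near and Cxcr4 was lost. Of 12 endothelial markers, Flt1 and Cdh5 were lost and Thbd was KO-only. Of 10 fibre markers, Des and Pvalb were lost, and Ckm, Acta1, Mylpf and Ttn had no peak at a start in either list. Of 8 fibro-adipogenic and tenocyte markers Tcf7l2 was lost, and none of the 8 immune or the 8 pericyte, smooth muscle and Schwann markers had a peak. The part of cells that keep Phf2 in the KO peaks was not tested.

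Sequence composition at the starts was similar in windows classed as retained and as lost. Of the windows of 300 bases, 63 were classed as retained and 736 as lost, fewer than the 98 retained and 1256 lost genes. The classes therefore count windows, and no-peak windows may include starts of genes with a peak elsewhere. The median number of CpG was 29 in both classes, with quartiles of 25 and 36 in retained and 21 and 37 in lost. It was 35 in the 9 windows classed as KO-only and 12 in the 20423 windows classed as having no peak. At least 15 CpG were present in 87.3% of retained, 90.2% of lost and 46.8% of all 21238 windows. The median GC content was 69.0% in retained, 67.7% in lost and 56.0% in no-peak windows. Peaks of either fate thus lay at CpG-rich starts, as printed for Foxo1, Cul1, Arid1b and Clock, and Plpp3 with 11 CpG was an exception among the strongest.

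Short motifs were counted on both strands of the same windows, and some sequences hold several. The GC box, GGGCGG, was in 81.0% of retained, 75.5% of lost and 46.2% of all windows. CCAAT was in 33.3%, 32.6% and 38.2%, and TATAAA in 4.76%, 4.62% and 12.6%. The AP-1 letters TGANTCA were in 6.35%, 3.4% and 6.99%, and the FoxO letters TGTTTAC in 4.76%, 1.77% and 3.0%. The AP-1 shares rest on 4 of 63 retained and 25 of 736 lost windows, and the FoxO shares on 3 of 63 and 13 of 736. The counting intervals of the retained and lost shares overlapped for each motif named here, including AP-1 and FoxO. For the GC box they were 69.6 to 88.8 against 72.3 to 78.5. A match describes letters in the window, not a bound site.

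The Phf2 gene (chromosome 13, 48801750 to 48870885, Gene ID 18676) had no peak in the Ctrl or KO PHF2 list or in the Ctrl IgG list, and 1 in the KO IgG list. Peak lists do not measure the deletion, so the labels were not checked by these files.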

How the data were processed

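CUT&RUN peak lists for Ctrl and KO gastrocnemius muscle, 1 library per group, were analysed, with the 2 IgG lists used only as a background. Bowtie2 and MACS2 were used with the mm10 build, per the submitters' processing notes. Tool versions, duplicate handling and the caller's control library were not given in the sources used here. Each deposited list has 10 narrowPeak columns. The deposited fold enrichment is the ratio of summit pileup to local background, with −log10 p and −log10 q values, also deposited, for that summit. The deposited score is 10 times the −log10 q, cut to a whole number, and was not used. These values are the authors' own and were used to describe, rank and filter peaks.

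Since MACS2 takes the fold from (pileup + 1) / (background + 1) and p from a Poisson tail, the pileup was solved for each peak. It was a whole number of tags times 0.649 in Ctrl and 0.609 in KO for 100% of distinct pairs, and the best other factor gave 48.5% and 59.5%. On 200 simulated peaks per list, 100% of tags were recovered. Tag intervals are exact Poisson, and shares carry Wilson intervals at 95% confidence. Reads were not analysed here, so total depth is unknown. PCR copies may be among the tags, so intervals reflect counting error alone.

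Starts were written 1-based. Overlap was computed in Python 3.11.15 (SciPy 1.17.1, NumPy 2.4.6, matplotlib 3.10.9, pandas 2.3.3) and checked with bedtools 2.31.1. The partner of a Ctrl peak was the KO peak of largest overlap, and a summit is the start plus column 10. The gene table was RefSeq's for GRCm38.p6, with 21887 protein-coding genes. A start with its strand was listed for 17492 (79.9%), and either gene end served for the other 4395. Summit positions used listed starts within 3 kb. Windows covered 250 bases before and 50 after a start, and 10 motifs were searched.

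Groups were taken from sample titles. The members, the 14 pathway and 6 marker lists and the naming rule were chosen with earlier results of these data known. Named were the retained pairs of highest KO fold enrichment, highest and lowest tag ratio, largest and smallest shift, near pairs by fold enrichment, the widest and tallest lost peaks, the highest KO-only peaks and list members by fold enrichment. Other names were chosen after their values were seen. Some genes that the rule names are not reported here. Alternatives were other overlap rules, a stricter q, merged peaks, a common p, other gaps and windows, the nearest summit as partner and peaks of 15 to 20 tags.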

Additional observations from a re-analysis of the deposited data

How the results depend on the processing

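Of 27 alternatives, 13 kept the value within its counting error, or a count within 1.5 times, and 14 moved it. The retained share of Ctrl peaks, 7.03%, was 1.85% with a reciprocal overlap of 50%, 5.80% with summits at most 500 bp apart and 5.61% with a −log10 q of at least 3. The share of KO peaks over a Ctrl peak, 75.8%, was 18.6% with the reciprocal overlap, 40.4% with the Ctrl summit required inside the KO peak and 57.1% with summits at most 500 bp apart. Near Ctrl peaks numbered 22 in place of 34 with a gap of 500 bp. With a window of 5 kb, 82.4% of near and 91.9% of lost peaks were at a start, and by the summit alone 79.2% of lost peaks. Among peaks of 15 to 20 tags, the median width was 922 bp in retained and 526 bp in lost peaks. With the KO peak of most tags as partner, 1 site in place of 2 had tag intervals apart, and the median tag ratio was 0.725. With the nearest KO summit, 3 sites in place of 5 had summits over 1 kb apart. These comparisons of partners were chosen after seeing the data. Under each overlap rule most Ctrl peaks had no KO peak. The fewer pairs under stricter overlap rules follow from the rules themselves, and the cause of the other changes was not tested. With 1 library per group, no library could be left out. No paired analysis was possible because there was a single library in each group. The lists ended at 8 tags in Ctrl and 10 in KO, and at a stricter p in KO (lowest −log10 p 6.19 against 4.73). With only Ctrl peaks at or above the lowest KO −log10 p, the retained share was 7.31% (107 of 1464). Whether the stricter p bears on the widths of KO peaks was not tested.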

Other observations

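The retained share by chromosome ran from 2.53% of the Ctrl peaks on chromosome 9 (2 of 79, 0.697 to 8.77) to 15.2% (14 of 92, 9.29 to 23.9) on chromosome 10. It was 12.6% on chromosome 2 (7.79 to 19.8) and 12.5% on chromosome 12 (6.72 to 22.1). Only the intervals of chromosomes 2 and 10 left out the share over all Ctrl peaks, 7.03%. The X chromosome had 23 Ctrl peaks, 1 of them retained. The single near site between protein-coding genes also lay in Chaserr, a long non-coding RNA next to Chd2, with 15 Ctrl tags and, 842 bp away, a KO peak of 11. Further retained sites were as follows. Nrp1, a receptor for semaphorins and VEGF, had 23 Ctrl tags over 2 KO peaks of 10 and 14, Col4a1 and Col4a2, which share a start region and encode basement membrane collagen, 20 and 18, and Cd93, an endothelial lectin, 11 in each, while the endothelial marker list had none of 12 genes retained. Nr3c1, the glucocorticoid receptor, had 29 Ctrl and 14 KO tags, Trib1 and Trib2, pseudokinases of the Tribbles family, 32 and 35 Ctrl and 18 and 16 KO tags in the paired peak, and Xbp1, a factor of the unfolded protein response, 15 and 17. These genes were chosen after their values were seen.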
